A study of Homo sapiens with 8 samples.

Results

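The matrix metalloproteinases (MMP), their tissue inhibitors (TIMP) and the related ADAM and ADAMTS proteases were followed on gene expression arrays of 2 pancreatic cancer cell lines. A gene was a member when its name in the array annotation was MMP, TIMP, ADAM or ADAMTS followed directly by a number and at most 1 final letter. This gave 69 genes on 90 probes, out of 27274 gene names on 34127 probes, with 23 MMP, 4 TIMP, 23 ADAM and 19 ADAMTS genes. The study asked what silencing of HOXB7, a homeobox transcription factor gene, does in pancreatic ductal adenocarcinoma cells. Its arrays held MIA PaCa-2, a line from a primary pancreatic tumor, and Capan-1, a line from a liver metastasis, each as parental cells and as cells 48 h after transfection with an siRNA against HOXB7 at 10 nM. There were 2 one-color arrays in each of the 4 groups, 8 in all. The controls were parental cells, since no array of cells given the scrambled siRNA is among them. The labels name no siRNA duplex and do not say whether the duplicates came from separate cultures, so p-values measure only the spread between these arrays.

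MMPs are secreted or membrane-bound zinc proteases that cut collagens, other matrix proteins and many cell surface and signalling proteins. They are made as inactive precursors, and TIMP proteins block the active enzymes. Many ADAM proteins are membrane-bound sheddases that release growth factors, cytokines and receptor ectodomains from the cell surface, whereas ADAMTS proteins are secreted and carry thrombospondin motifs that bind them to the matrix. In pancreatic tumors these proteases are known from both the tumor cells and the surrounding stroma.

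A level is the log2 intensity of a gene's brightest probe relative to the 75th percentile of the gene probes of its array, and a difference is the difference of group means of that level with its standard error (SE) from limma. A gene was detected in a group when the scanner software called its probe well above background on both arrays. The software called 69.2% to 74.3% of the spots of an array well above background, no gene spot was saturated, and duplicate arrays correlated with r between 0.991 and 0.994 over probes. Each cell line was hybridized on a slide of its own, and on both slides the siRNA-treated samples took the first positions and the parental samples the last, so cell line cannot be told apart from slide, nor treatment from position. The level of HOXB7 was -4.82 and -4.09 on the parental MIA PaCa-2 arrays and -7.76 and -7.78, not well above background, on the siRNA-treated ones. In MIA PaCa-2 it was at least 2.81-fold lower after siRNA (log2 difference -3.32 ± 0.26 SE, limma adjusted p = 0.0173). In Capan-1 it was -2.48 and -2.34 in parental cells and -5.26 and -4.80 after siRNA. This difference of -2.62 ± 0.26 did not pass the threshold (limma adjusted p = 0.121, unadjusted p = 5.94e-05). A background correction by normexp, used as an alternative, added an offset of 50 to intensities whose median per array was 29.9 to 38.6. Such an offset makes log2 differences of dim probes smaller by construction. Both siRNA arrays were below both parental arrays for HOXB7 in each line. The call in MIA PaCa-2 was lost with the background corrected by normexp (-0.10, adjusted p = 0.599) and when a single array was left out, except MIA PaCa-2 siRNA replicate 2 or parental replicate 1 (-3.33 to -2.95, adjusted p = 0.0556 to 0.083).

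A smaller share of these genes than of all genes on the array was detected. Between 35 and 37 of the 69 members were detected in a group, 50.7% to 53.6%, while 67.8% to 69.2% of all 27274 gene names were. There were 30 members detected in all 4 groups and 27 detected in none, 20 of which were not well above background on any array. Detection followed the cell line for 10 members. MMP3, ADAM22, ADAM23, ADAMTS4 and ADAMTS10 were detected in both MIA PaCa-2 groups and in neither Capan-1 group, and MMP7, MMP21, TIMP3, TIMP4 and ADAMTS9 in both Capan-1 groups and in neither MIA PaCa-2 group. The other 2 members were MMP10, detected in siRNA-treated Capan-1 cells alone, and ADAMTS14, missed in parental MIA PaCa-2 cells alone. For MMP10, ADAMTS14, MMP21, ADAM23 and ADAMTS10 a group counted as undetected still held 1 array well above background. MMP21 was tested between the parental lines and did not pass (-0.99 ± 0.50, limma adjusted p = 0.121). How many of all genes had detection that followed the cell line was not counted.

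**Figure D1:**
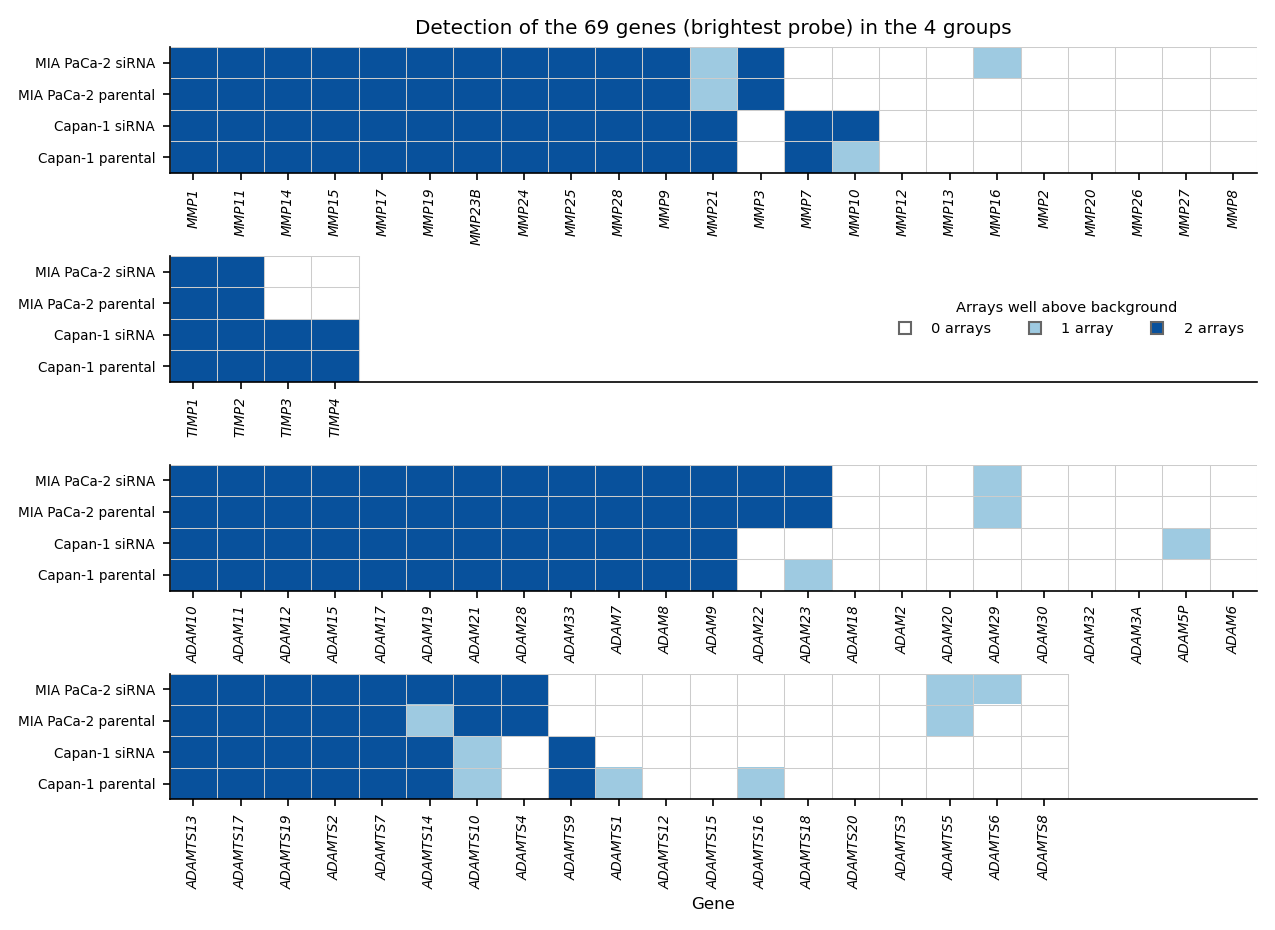
Detection of the 69 genes by their brightest probe, with genes on the horizontal axes, 1 panel per family, and the 4 groups in rows; color gives the number of arrays, 0, 1 or 2, on which the probe was well above background. The 30 genes at the left of their panels are detected in all groups, and the 10 genes that follow the cell line appear as blocks of 2 rows.

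Every role held undetected members except the stromelysins and the TIMP inhibitors. Among the collagenases, which cut fibrillar collagen, MMP1 was detected in all groups, but MMP8 and MMP13 were not detected in any. MMP2 (gelatinase A) was not well above background on any of the 8 arrays, with levels between -7.98 and -5.69, whereas MMP9 (gelatinase B) was detected on all of them. Of the 7 ADAMTS genes known as proteoglycanases, ADAMTS1, ADAMTS5, ADAMTS8, ADAMTS15 and ADAMTS20 were not detected in any group, and ADAMTS4 and ADAMTS9 were detected in 1 cell line each. The 9 undetected ADAM genes included ADAM2, ADAM18, ADAM20, ADAM29 and ADAM30, known from the testis, and ADAM3A, ADAM5P and ADAM6, which do not encode a working protease in humans. A probe that is not well above background gives only an upper limit for its transcript.

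The parental lines differed in most of the members that could be tested. Of 41 members tested, 14 were higher and 18 lower in MIA PaCa-2 than in Capan-1 (adjusted p under 0.05), and 9 did not pass. In the same comparison 39% of all 20107 genes tested were called higher and 31.3% lower, so a call as such was common on these arrays. A lower level in every cell and a smaller share of cells with the transcript cannot be told apart on them. The median absolute log2 difference was 1.47 over the 41 members and 0.77 over all genes tested, and the median signed difference was -0.35 against 0.10. These medians include genes that entered the test through the line in which they were detected, whose fitted differences are no bounds. Over genes detected in both parental lines the median absolute difference was 1.03 for 30 members and 0.65 for all 16886 genes. With the background corrected by normexp and its offset of 50, 24 of the 32 called differences were smaller by over 1.5 times.

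**Figure D2:**
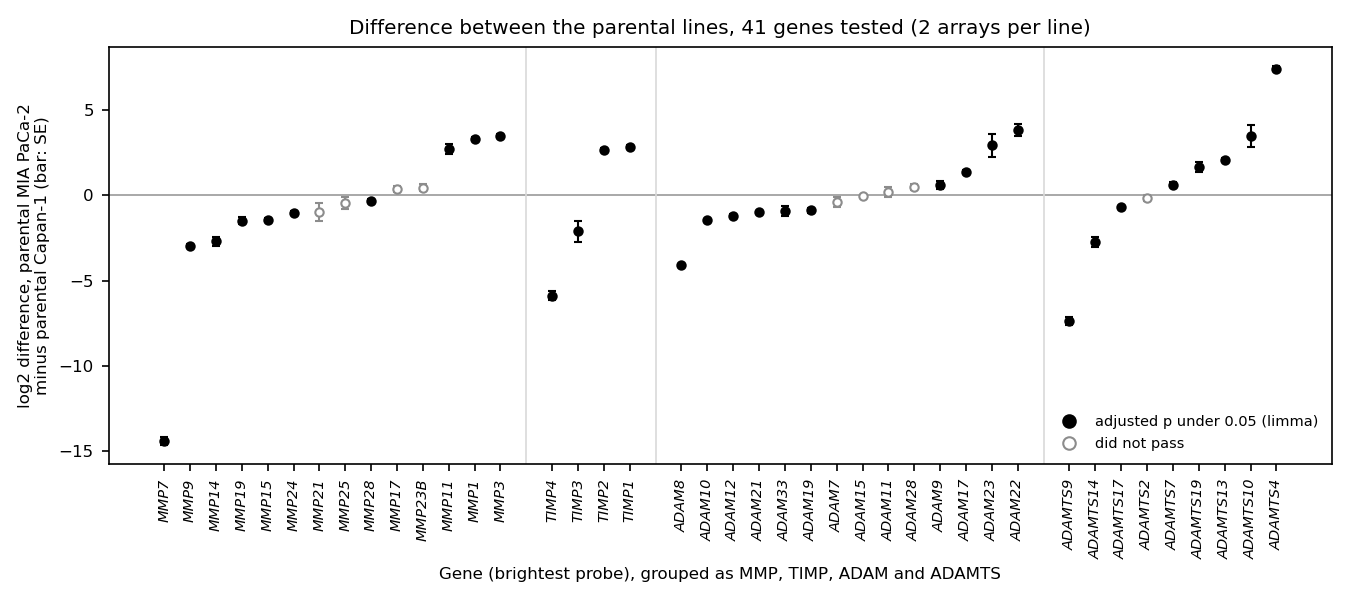
Difference between the parental lines for the 41 members tested; the vertical axis is the log2 difference, parental MIA PaCa-2 minus parental Capan-1, with its SE as a bar, and genes are ordered within each family. Filled points passed the limma threshold, and they run from -14.40 for MMP7 to 7.40 for ADAMTS4, with both signs in every family.

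The secreted MMPs divided between the lines. MMP1 (interstitial collagenase), MMP3 (stromelysin 1) and MMP11 (stromelysin 3) were higher in MIA PaCa-2, and MMP7 (matrilysin, a small MMP of glandular epithelium) and MMP9 were higher in Capan-1. The levels of MMP7 were 6.74 and 6.71 on the parental Capan-1 arrays and -8.03 and -7.32, not well above background, on the parental MIA PaCa-2 arrays. MMP7 was at least 6770-fold lower in MIA PaCa-2 (log2 difference -14.40 ± 0.22, adjusted p = 2.85e-07), the largest difference among the members tested. Such a bound sets the bright group against the dimmest signal that counted as well above background, or against the probe's own signal where that was higher, and the fitted log2 difference of a probe at background is not itself a bound. MMP9, read on 10 spots per array, was at -2.87 and -2.85 in MIA PaCa-2 and at 0.10 and 0.15 in Capan-1. It was 7.95-fold lower in MIA PaCa-2 (-2.99 ± 0.12, adjusted p = 5.56e-06).

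MMP1 showed the opposite order. Its levels were 3.88 and 3.95 in parental MIA PaCa-2 and 0.70 and 0.55 in parental Capan-1, over 10 spots per array, and it was 9.77-fold higher in MIA PaCa-2 (3.29 ± 0.12, adjusted p = 3.55e-06). MMP3 stood at -3.95 and -4.18 in MIA PaCa-2 and was not well above background in Capan-1 (-7.43 and -7.62). MMP3 was therefore at least 3.59-fold higher in MIA PaCa-2 (adjusted p = 5.54e-06). MMP11, which is activated inside the cell by furin, was at -1.21 and -0.88 in MIA PaCa-2 and -3.88 and -3.60 in Capan-1, 6.46-fold higher (2.69 ± 0.28, adjusted p = 0.000288).

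The membrane-type MMPs that differed were all lower in MIA PaCa-2. MMP14, the membrane protease that activates MMP2, was at -4.19 and -4.25 in MIA PaCa-2 and -1.52 and -1.50 in Capan-1, 6.55-fold lower (-2.71 ± 0.28, adjusted p = 0.000251). The transmembrane MMP15 (-1.47 ± 0.11) and MMP24 (-1.05 ± 0.11) also passed the test. The glycolipid-anchored MMP17 (0.36 ± 0.16, adjusted p = 0.0938) and MMP25 (-0.46 ± 0.34, adjusted p = 0.274) did not, and MMP16 was not detected in any group. MMP28 (epilysin) was lower by a small margin (-0.35 ± 0.11, adjusted p = 0.0245), a call lost without parental MIA PaCa-2 replicate 2 (-0.23, adjusted p = 0.0844), without parental Capan-1 replicate 1 (-0.34, adjusted p = 0.0979) or without replicate 2 (-0.36, adjusted p = 0.0814). It was also lost with normexp (-0.14, adjusted p = 0.223), with no scaling (-0.32, adjusted p = 0.233), with spike-in scaling (-0.53, adjusted p = 0.0597) and with the parental arrays fitted alone (adjusted p = 0.0629). For MMP19 both probes passed with opposite signs, -1.49 for the brighter and 1.83 for the other, so the array gives no single direction for this gene.

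All 4 TIMP genes differed between the parental lines, in opposite directions. TIMP1 and TIMP2 were higher in MIA PaCa-2, and TIMP3 and TIMP4 were higher in Capan-1. TIMP1, a secreted inhibitor that acts poorly on membrane-type MMPs, was at 4.88 and 4.81 in MIA PaCa-2 and 1.95 and 2.11 in Capan-1, 7.04-fold higher (2.82 ± 0.11, adjusted p = 4.24e-06). TIMP2, which takes part with MMP14 in the activation of MMP2, was at 5.63 and 5.77 in MIA PaCa-2 and 3.05 and 3.03 in Capan-1, 6.32-fold higher (2.66 ± 0.10, adjusted p = 4.51e-06). TIMP1 and TIMP2 were well above background on all 8 arrays.

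TIMP3 and TIMP4 were not well above background on any MIA PaCa-2 array. TIMP4 was at -1.43 and -1.48 on the parental Capan-1 arrays and at least 23.3-fold lower in MIA PaCa-2 (adjusted p = 6.55e-06). TIMP3, a matrix-bound inhibitor that also blocks ADAM17 and several ADAMTS proteases, was dim in Capan-1 as well, at -4.90 and -4.62, and at least 2.33-fold lower in MIA PaCa-2 (log2 difference -2.12 ± 0.62, adjusted p = 0.022). The TIMP3 call was lost without parental Capan-1 replicate 1 (-2.26, adjusted p = 0.0621) or replicate 2 (-1.98, adjusted p = 0.0877), with normexp (-0.18, adjusted p = 0.177) and with the parental arrays fitted alone (adjusted p = 0.0602). Its fitted difference ranged from -3.17 to -1.08 when each parental MIA PaCa-2 array was left out.

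**Figure D3:**
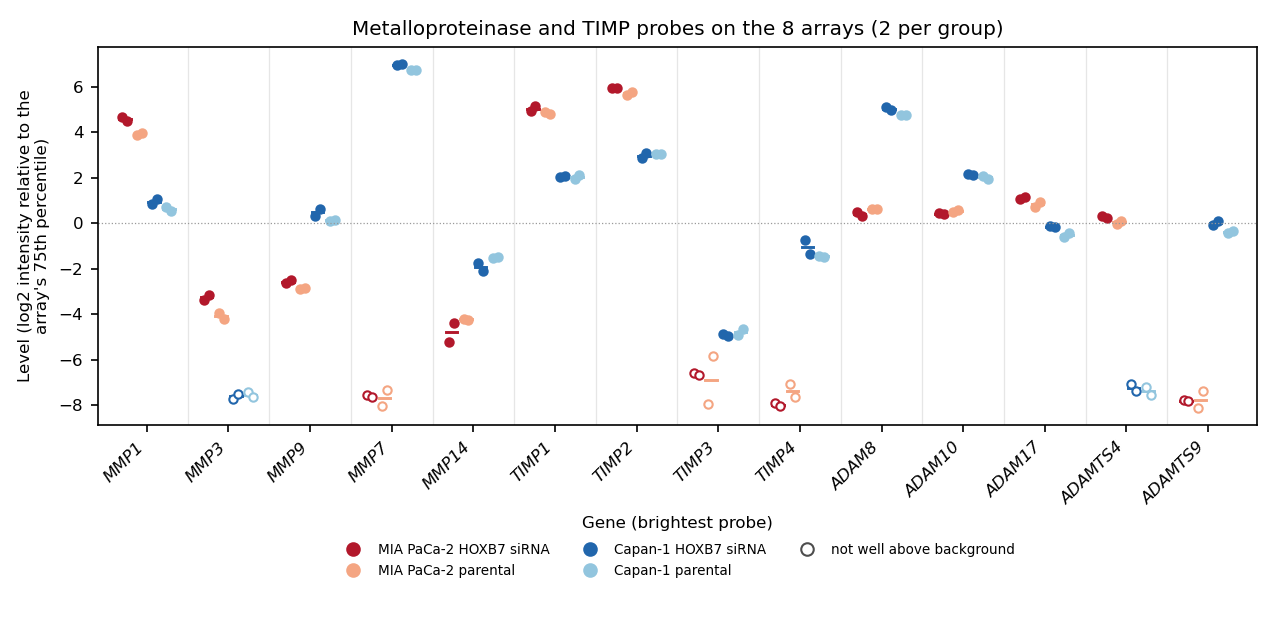
Levels of 14 members on each of the 8 arrays; the vertical axis is the log2 intensity of the brightest probe relative to the 75th percentile of its array, colors mark the 4 groups, short lines their means, and open points arrays not well above background. For most genes, points of a line lie close together and apart from the other line, with siRNA-treated and parental points near each other. TIMP3, at background in MIA PaCa-2, is an exception, with parental points at -7.93 and -5.84 in that line. MMP7 reaches 6.99 in Capan-1 and stays at or under -7.32 in MIA PaCa-2.

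Among the sheddases, ADAM10 and ADAM17 went opposite ways between the lines. ADAM10, which cleaves Notch receptors and cadherins, was at 0.51 and 0.60 in parental MIA PaCa-2 and 2.07 and 1.96 in parental Capan-1, 2.75-fold lower (-1.46 ± 0.09, adjusted p = 2.4e-05), and its other probe was lower too (-1.84 ± 0.14). ADAM17, which releases tumor necrosis factor and ligands of the epidermal growth factor receptor, was at 0.73 and 0.93 in MIA PaCa-2 and -0.60 and -0.42 in Capan-1, 2.53-fold higher (1.34 ± 0.11, adjusted p = 0.000105). ADAM8, a protease better known from myeloid cells, showed the largest difference of an ADAM gene detected in both lines. Its levels were 0.62 and 0.65 in MIA PaCa-2 and 4.76 and 4.75 in Capan-1, 17.4-fold lower (-4.12 ± 0.10, adjusted p = 8.19e-07).

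ADAM22 and ADAM23, neuronal receptors for LGI proteins that lack protease activity, were higher in MIA PaCa-2. ADAM22 was at -1.87 and -1.65 in MIA PaCa-2 and not well above background in Capan-1, at least 13.9-fold higher (adjusted p = 0.00016). ADAM23 was at -3.52 and -3.41 in MIA PaCa-2. On the Capan-1 side it was well above background on 1 of 2 parental arrays, at -5.24, and not on the other, at -7.52. Its difference was 2.91 ± 0.67 (adjusted p = 0.00868), and 1.78 or 4.05 with 1 of these Capan-1 arrays left out. ADAM12 (-1.22 ± 0.12), ADAM19 (-0.89 ± 0.15) and ADAM21 (-1.02 ± 0.08) were lower in MIA PaCa-2. ADAM9 was higher (0.59 ± 0.22, adjusted p = 0.0482), but its call was lost when any parental array other than MIA PaCa-2 replicate 1, or either Capan-1 siRNA array, was left out (0.41 to 0.71, adjusted p = 0.0577 to 0.207). The ADAM9 call was also lost with normexp (0.20, adjusted p = 0.171), spike-in scaling (0.41, adjusted p = 0.0934) or no filter on dim probes (adjusted p = 0.0755).

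ADAM33, ADAM11 and the 3 other ADAM genes tested gave no firm direction. ADAM33 was lower by its brightest probe (-0.95 ± 0.29, adjusted p = 0.0275) and higher by another (0.90 ± 0.12, adjusted p = 0.000729). Without parental MIA PaCa-2 replicate 2 the brightest probe gave -0.55 (adjusted p = 0.101), and it also missed the threshold without either parental Capan-1 array. ADAM11 did not pass by its brightest probe (0.18 ± 0.26, adjusted p = 0.572) and was higher by its other probe (1.90 ± 0.17, adjusted p = 0.000128). ADAM7, ADAM15 and ADAM28 had log2 differences of -0.39, -0.05 and 0.47 and did not pass.

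ADAMTS4 and ADAMTS9, both proteases of aggrecan and versican, were each detected in 1 line and not in the other. ADAMTS4 was at -0.02 and 0.12 on the parental MIA PaCa-2 arrays and -7.17 and -7.52, not well above background, on the parental Capan-1 arrays, at least 62.3-fold higher in MIA PaCa-2 (adjusted p = 5.85e-07). ADAMTS9 was at -8.10 and -7.39, not well above background, in MIA PaCa-2 and at -0.41 and -0.34 in Capan-1, at least 49.2-fold lower (adjusted p = 1.82e-06). These were the only proteoglycanases of the list of 7 with a detected probe. Of the procollagen N-proteinases, which trim fibrillar collagen precursors, ADAMTS14 was lower in MIA PaCa-2 (-2.74 ± 0.31, adjusted p = 0.000414). ADAMTS2 did not pass (-0.19 ± 0.19, adjusted p = 0.4, and 0.53 ± 0.42 by its other probe), and ADAMTS3 was not detected.

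The other ADAMTS genes that passed were mostly higher in MIA PaCa-2. ADAMTS10, linked to fibrillin microfibrils, was at -1.94 and -2.10 in MIA PaCa-2 and -5.05 and -5.91 in Capan-1, with the last value not well above background (3.46 ± 0.62, adjusted p = 0.00304). ADAMTS19 (1.64 ± 0.27) was higher and ADAMTS17 (-0.73 ± 0.09) lower, the latter a call lost with normexp (-0.12, adjusted p = 0.324). ADAMTS7 was higher by 0.59 ± 0.15 (adjusted p = 0.0129), and missed the threshold without parental MIA PaCa-2 replicate 2 (0.51, adjusted p = 0.0631) or parental Capan-1 replicate 2 (0.41, adjusted p = 0.0595), with quantile normalization (0.25, adjusted p = 0.158) and with spike-in scaling (0.41, adjusted p = 0.0791). By another probe, well above background on all 8 arrays, ADAMTS7 was higher by 1.38 ± 0.18 (limma adjusted p = 0.000666). By a dimmer probe, not well above background in Capan-1, ADAMTS7 was at least 2.19-fold higher (limma adjusted p = 0.00488). ADAMTS13, the protease of von Willebrand factor, was higher by its brightest probe (2.07 ± 0.08, adjusted p = 5.28e-06) and lower by the other (-0.77 ± 0.21, adjusted p = 0.019). When ADAMTS13, MMP19 and ADAM33, whose probes passed in opposite directions, were left out, 13 members were higher and 16 lower.

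The same difference was read on the 4 siRNA-treated arrays, which share slides but no array with the parental comparison. Both readings came from the same fit and used the same estimate of spread, so the SE of a gene is equal in both. A call made again is therefore not an independent repeat. Of the 32 members called between the parental lines, 32 had the same sign on the siRNA-treated arrays and 31 were called again, all but MMP28. The share called again among all genes called between the parental lines was not counted. In all, 17 members were higher and 20 lower of 42 tested, and over all genes tested on these arrays 39.7% were higher and 30.5% lower. ADAM7, ADAM15, ADAM28, MMP10, MMP17 and MMP23B were called on the siRNA-treated arrays and not on the parental ones, and the difference between both readings, which equals the difference of the siRNA responses, was not called for any of them.

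A group of 9 MMP genes lies together on chromosome 11. On the build of the array annotation, hg18, their probes run from MMP7 at chr11:101899239-101899298 to MMP13 at chr11:102318983-102319042, in the order MMP7, MMP20, MMP27, MMP8, MMP10, MMP1, MMP3, MMP12 and MMP13. In this run of 420 kb, some genes were read in different lines, while the adjacent MMP1 and MMP3 were both higher in MIA PaCa-2. MMP7 was detected in Capan-1 alone, MMP1 in both lines with a higher level in MIA PaCa-2, and MMP3, the next gene after MMP1, in MIA PaCa-2 alone. MMP10 was close to background, at -5.37 and -5.05 in siRNA-treated Capan-1 cells and -5.65 and -5.27 in parental ones, with the -5.65 not well above background, and it was not well above background in MIA PaCa-2. The other 5 genes, MMP8, MMP12, MMP13, MMP20 and MMP27, were not detected in any group.

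**Figure D4:**
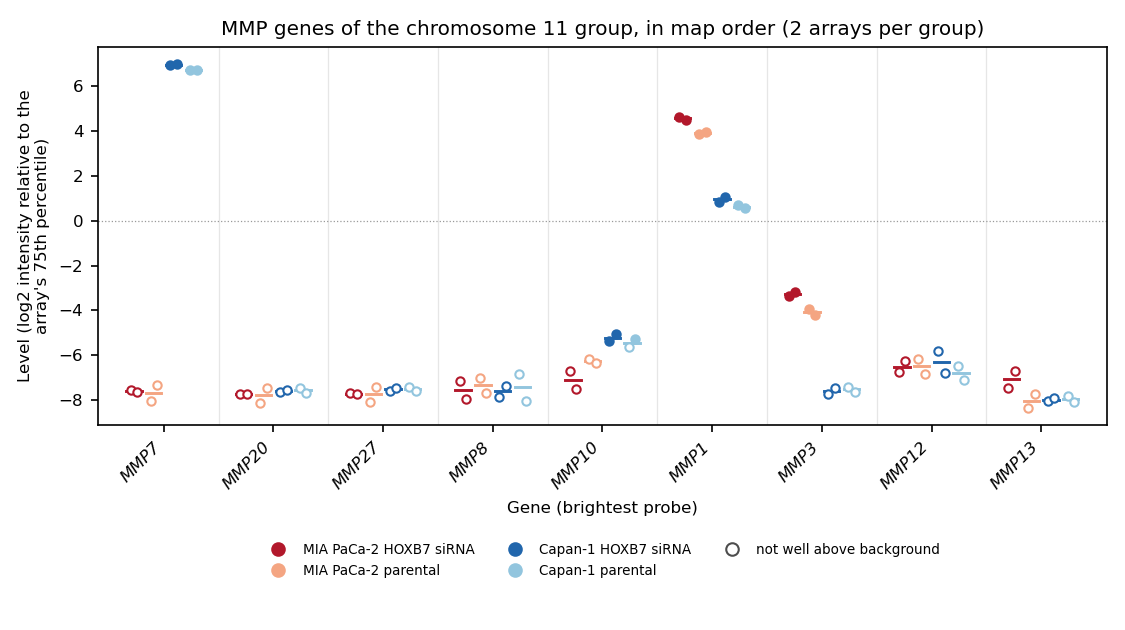
Levels of the 9 MMP genes of the chromosome 11 group on each of the 8 arrays, in map order from MMP7 to MMP13; the vertical axis is the log2 intensity of the probe relative to the 75th percentile of its array, colors mark the 4 groups and open points arrays not well above background. MMP7 is high in Capan-1 only, MMP1 is higher in MIA PaCa-2, and MMP3 is above background in MIA PaCa-2 only.

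The promoters of MMP7 and MMP10 are shown because both lie in this chromosome 11 group and share a layout, and TIMP1 and TIMP4 because they are inhibitors with opposite directions between the lines. The sequences are the 150 bases before the RefSeq start site on GRCh38.p14, written along the strand of the gene. Capitals mark 3 motifs on either strand. These are an AP-1-like element, spelled TGANTCA with any base in the middle, the TATA element of core promoters, spelled TATAAA, and the GC box bound by Sp1 factors, spelled GGGCGG.
MMP7, chr11:102530748-102530897, minus strand: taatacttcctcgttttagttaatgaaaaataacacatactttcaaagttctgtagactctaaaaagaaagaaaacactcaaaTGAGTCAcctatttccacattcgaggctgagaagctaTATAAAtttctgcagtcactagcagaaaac
MMP10, chr11:102780629-102780778, minus strand: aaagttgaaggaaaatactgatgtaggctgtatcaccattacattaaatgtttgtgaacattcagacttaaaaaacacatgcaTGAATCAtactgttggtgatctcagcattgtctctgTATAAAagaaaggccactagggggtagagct
TIMP1, chrX:47582286-47582435, plus strand: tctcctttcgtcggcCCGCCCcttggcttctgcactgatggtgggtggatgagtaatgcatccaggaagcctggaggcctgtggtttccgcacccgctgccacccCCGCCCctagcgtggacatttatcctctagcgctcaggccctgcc
TIMP4, chr3:12158913-12159062, minus strand: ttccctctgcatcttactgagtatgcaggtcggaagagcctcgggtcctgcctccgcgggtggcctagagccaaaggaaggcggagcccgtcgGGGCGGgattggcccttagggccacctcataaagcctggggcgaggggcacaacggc

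MMP7 and MMP10 each hold the AP-1-like element from 67 to 61 bases before the start site and a TATA element close to it. The windows of TIMP1 and TIMP4 hold GC boxes and neither of the other motifs. Over the RefSeq promoter windows, from 250 bases before to 50 after the start, 39 of the 69 members had an entry. The AP-1-like element was present in 4 of these 39 (10.3%), in MMP7, MMP10, MMP20 and ADAMTS12, and in 7.71% of all 35116 windows. Of the 4, MMP7 alone holds TGAGTCA, a spelling of the AP-1 consensus, which has G or C in the middle. The others hold TGAATCA, which that consensus leaves out. The TATA element was present in 8 (20.5%, against 11.5% of all windows) and the GC box in 26 (66.7%, against 45%). These motifs do not overlap in sequence, and a match describes the letters only.

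After HOXB7 siRNA, none of the members passed the threshold in MIA PaCa-2. Of 36 members tested, 0 were called higher and 0 lower by limma, where 1.04% of all 19134 genes tested were called higher and 1.01% lower. At an unadjusted p under 0.05 there were 5 higher and 3 lower, where 10.5% of all genes tested were higher and 10.3% lower, and the lowest adjusted p was 0.0529. The median log2 difference of the members was 0.02, as over all genes tested (0.02), and the median absolute difference was 0.23 against 0.17. In 21 members the siRNA arrays lay wholly on one side of the parental arrays, 13 above and 8 below, where 52% of all genes tested were apart in this way (86.4% between the parental lines). An exact permutation test of 2 arrays against 2 cannot give a p below 0.33.

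The 3 members nearest the threshold in MIA PaCa-2 had higher levels after siRNA. ADAM12 was at -3.49 and -3.37 in parental cells and -2.59 and -2.86 after siRNA, a difference of 0.70 ± 0.12 (adjusted p = 0.0529). MMP3 was at -3.95 and -4.18 in parental cells and -3.36 and -3.16 after siRNA (0.81 ± 0.14, adjusted p = 0.055), and MMP1 at 3.88 and 3.95 in parental cells and 4.65 and 4.50 after siRNA (0.66 ± 0.12, adjusted p = 0.0582). The groups did not overlap for these genes. MMP19 had the largest difference, 1.02 ± 0.21 (adjusted p = 0.07), by its brightest probe, but -0.10 ± 0.21 by its other probe. With the background corrected by normexp, MMP1 and MMP19 passed. With an intensity trend in the spread, or with the probes restricted to those well above background on all 8 arrays, MMP1, ADAM12 and MMP19 passed. On the lower side ADAMTS13 differed by -0.42 ± 0.08 (adjusted p = 0.0692) by its brightest probe, but by 0.30 ± 0.21 by its other probe. ADAM7 differed by -0.95 ± 0.30 (adjusted p = 0.156). ADAM7 had levels of -4.51 and -3.57 after siRNA and -3.21 and -2.98 before. The ADAM7 difference was -1.42 (adjusted p = 0.0433) without siRNA-treated replicate 2, -0.47 (adjusted p = 0.287) without replicate 1 and -0.15 (adjusted p = 0.365) with normexp.

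The genes of main interest by role also did not pass in MIA PaCa-2. MMP9 differed by 0.29 ± 0.12 (adjusted p = 0.266) and MMP14 by -0.56 ± 0.28 (adjusted p = 0.318). Between MMP14 replicates the siRNA-treated arrays lay at -5.21 and -4.36, and its difference was -0.99 or -0.14 with 1 of these arrays left out. ADAM10 differed by -0.13 ± 0.09 (0.09 ± 0.14 by its other probe) and ADAM17 by 0.27 ± 0.11. TIMP1 differed by 0.19 ± 0.11 and TIMP2 by 0.24 ± 0.10, while MMP2, TIMP3 and TIMP4 stayed at background and could not be compared.

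In Capan-1, 37 members were tested and 0 were called in either direction, with a lowest adjusted p of 0.235. Across all 18861 genes tested, 0.0053% were called higher and 0% lower, so few calls of any kind were made in this line. At an unadjusted p under 0.05 there were 5 members higher and 3 lower, where 5.68% of all genes tested were higher and 6.61% lower. The median log2 difference was -0.07 over the members and 0.00 over all genes, and the median absolute difference was 0.21 against 0.14. In 24 members, 12 above and 12 below, the siRNA arrays lay wholly on one side of the parental arrays, where 54.2% of all genes tested did.

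ADAM19 had the largest difference in Capan-1. It was at -1.79 and -1.39 in parental cells and -1.0 and -0.82 after siRNA (0.68 ± 0.15, adjusted p = 0.235). MMP9, at 0.10 and 0.15 in parental cells, was at 0.32 and 0.64 after siRNA (0.35 ± 0.12, adjusted p = 0.359), and MMP7, at 6.74 and 6.71, was at 6.96 and 6.99 (0.24 ± 0.22, adjusted p = 0.673). The groups did not overlap for these 3 genes, and none passed. After ADAM19 the differences of ADAMTS14 (-0.51 ± 0.31), ADAM11 (0.43 ± 0.26), TIMP4 (0.42 ± 0.26) and MMP14 (-0.42 ± 0.28) were the largest in size. The other ADAM11 probe gave -0.47 ± 0.17, so the array gives no single direction for this gene. ADAM10 differed by 0.14 ± 0.09 and ADAM17 by 0.35 ± 0.11, TIMP1 by 0.02 ± 0.11, TIMP2 by -0.08 ± 0.10 and TIMP3 by -0.14 ± 0.62.

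**Figure D5:**
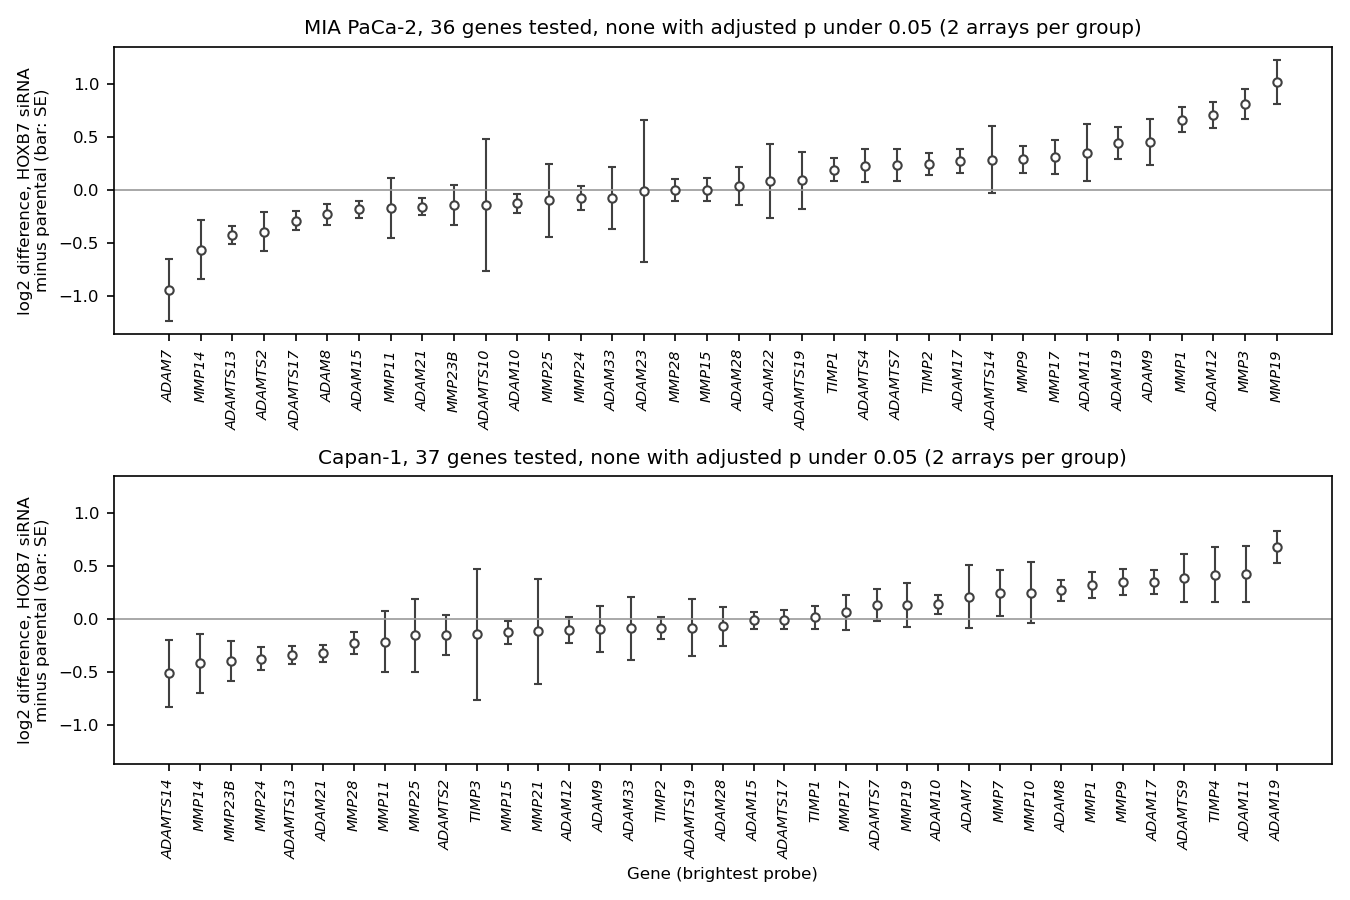
Difference between HOXB7 siRNA-treated and parental cells for the 36 members tested in MIA PaCa-2 and the 37 tested in Capan-1; the vertical axis is the log2 difference with its SE as a bar, and genes are ordered by it. The values run from -0.95 to 1.02 in MIA PaCa-2 and from -0.51 to 0.68 in Capan-1, and no member passed the limma threshold in either line.

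The difference between the lines in their response to siRNA was tested as such. Of 42 members, 0 were called in either direction, with 4 higher and 4 lower in MIA PaCa-2 at an unadjusted p under 0.05. Of all 20562 genes tested, 0.00486% were called in each direction, and 6.16% were higher and 5.09% lower at the unadjusted threshold. The differences that were largest among members well above background on all 8 arrays were ADAM7 (-1.16 ± 0.42, adjusted p = 0.399), MMP19 (0.88 ± 0.29, adjusted p = 0.366, but -0.05 ± 0.30 by its other probe), ADAM12 (0.80 ± 0.17, adjusted p = 0.212), ADAM9 (0.54 ± 0.31, adjusted p = 0.563) and ADAM8 (-0.50 ± 0.14, adjusted p = 0.31). A missed threshold with 2 arrays per group does not show that the lines responded alike.

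Activators, inhibitors and partners of these proteases were read from a list of 32 genes present on the array. Between the parental lines, MIA PaCa-2 had lower levels of 19 of the 30 tested and higher levels of 6, where 31.3% of all genes tested were lower and 39% higher. SPINT1, an inhibitor of matriptase and hepsin, was at least 566-fold lower in MIA PaCa-2, and ST14, which encodes matriptase, differed by -5.05 on the log2 scale. RECK, a membrane-anchored inhibitor of MMPs, was at least 3.74-fold lower, and TSPAN5, a tetraspanin that escorts ADAM10 to the cell surface, at least 23.6-fold lower. A2M, a general protease trap, was at least 4.48-fold higher in MIA PaCa-2. After siRNA, 1 of 24 tested was called in MIA PaCa-2, where 1.04% of all genes tested were called higher. PLAUR, the urokinase receptor, was at 1.77 and 1.59 in parental cells and 2.27 and 2.44 after siRNA (0.68, adjusted p = 0.0476), a call lost whichever of the 8 arrays was left out. None of 28 was called in Capan-1, where 1 was higher and 2 lower at an unadjusted p under 0.05.

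Markers of cell types were read beside the difference between the lines, and their part in it was not tested. All 6 epithelial markers were detected in Capan-1 and 4 of 6 in MIA PaCa-2, where EPCAM and CDH1 were not well above background on any array, and the summed level of the list was 8.37 to 8.51 in MIA PaCa-2 and 10.2 to 10.3 in Capan-1. Of 8 fibroblast markers, LUM, PDGFRA, PDGFRB and THY1 were not well above background on any array, while COL1A2 (log2 difference 9.71, with 1 of 2 parental Capan-1 arrays not well above background) and COL3A1 (at least 2.34-fold) were higher in MIA PaCa-2. COL1A1 was lower there (-1.11, adjusted p = 0.018), and DCN did not pass (0.70, adjusted p = 0.215). The summed level of the fibroblast list was 3.81 to 3.97 in MIA PaCa-2 and -2.87 to -2.59 in Capan-1. The 4 leukocyte markers on the array, PTPRC, CD14, CD68 and CD3E, were detected in all groups (summed level of 2.20 to 2.33 in MIA PaCa-2 and 0.56 to 0.72 in Capan-1), and 2 of 3 endothelial markers, CDH5 and VWF, were as well (-1.32 to -1.26 in MIA PaCa-2 and -1.85 to -1.65 in Capan-1). Of the leukocyte markers, CD14 (18.4-fold) and PTPRC (3.35-fold) were higher in MIA PaCa-2, CD3E was lower (log2 difference -1.43, adjusted p = 0.00631) and CD68 did not pass (-0.07, adjusted p = 0.604). PTPRC was detected in all groups by its brightest probe only. Another PTPRC probe was detected in MIA PaCa-2 alone, and its remaining probes were not well above background on any array. CD68 was the 1 marker called after siRNA, with a log2 level higher in MIA PaCa-2 by 0.70 (adjusted p = 0.0438).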

How the data were processed

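RNA of MIA PaCa-2 and Capan-1 cells, parental or treated with HOXB7 siRNA, was measured on 8 one-color Agilent arrays, 2 per group, grouped by the sample titles. The authors scanned the arrays and deposited, from Agilent Feature Extraction 9.5.3, the background-subtracted intensity of each spot with its flags. A second file they deposited holds these intensities as log2 values, and differs from them by at most 3.45e-08, so no scaling between arrays had been done.

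Spots with an outlier flag were dropped, log2 intensities averaged per probe, and the 75th percentile of each array subtracted. Group means were fitted on all 8 arrays with limma 3.58.1 in R 4.3.3 (lmFit, eBayes), with data.table (1.17.8). Tests were two-sided and used the probes detected in at least 1 of the groups compared, where detected means well above background on both of its arrays, with Benjamini-Hochberg adjustment over all of them (25551 probes in the fit) and a threshold of 0.05. A gene is counted by its brightest probe over the 8 arrays, for members and for all genes alike. Other probes are given for some of the genes where they disagree. The steps were tested on simulated data. Promoters were read from RefSeq windows and figures drawn with Python 3.11.15, pandas 2.3.3, numpy 2.4.6 and matplotlib 3.10.9. All 69 members matched RefSeq, 68 by symbol and ADAM5P by an older one. No protein table was used, so the ADAM genes were grouped by known role and not by their zinc-binding motif.

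Named are HOXB7, members past the threshold in any comparison, the 5 largest differences of each comparison among members well above background on all its arrays, MMP2 and MMP9, and MMP14, ADAM10, ADAM17 and the TIMP genes by role; others were chosen after their values were seen. The members and the lists of regulators, of ADAMTS-like and other relatives and of cell type markers were chosen with earlier results of these data known. Alternatives covered background correction, scaling, spot and probe filters, the model, an interval rule on the brightest probe and each array left out. Background correction by normexp added an offset of 50. The number of arrays limits the precision.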

Additional observations from a re-analysis of the deposited data

How the results depend on the processing

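The 32 members called between the parental lines kept their sign in all 630 recomputed values and missed the threshold in 41. With normexp, 24 of the 32 had a difference smaller by over 1.5 times. With a minimum log2 difference of 1 the test called 9 lower. With each array left out, which takes the spread of its lone partner from the remaining groups, 12 to 15 members were higher and 15 to 20 lower. For MIA PaCa-2 after siRNA, where 0 members were called, 2 were higher with normexp, 1 with quantile normalization, 3 when only probes detected on all 8 arrays entered, 3 with an intensity trend in the spread, and 1 (MMP19) by an interval rule, under which the brightest probe had to lie beyond the 99% interval of the parental arrays on both siRNA arrays. This rule set each siRNA array against the parental array of the same replicate number, which does not pair the arrays. It leaves out the agreement of several probes per gene that the study also asked for. There 1 was lower with quantile normalization (ADAMTS17), 1 with only those probes (ADAMTS13), and 0 to 1 with each array left out (0 higher throughout). In Capan-1 the interval rule gave 2 higher (ADAM19 and ADAMTS9), and 0 were called with any array left out. The difference of the responses stayed at 0 in all 19 settings. For HOXB7 in MIA PaCa-2 the difference was -0.10 with normexp (adjusted p = 0.599). It was -3.32 with no filter on dim probes (0.0515), with a minimum log2 difference of 1 (0.239), with the cell line fitted alone (0.111) and with the replicate number as a block (adjusted p = 0.169), and -3.68 to -2.95 with each array left out. For HOXB7 in Capan-1 it passed at -0.66 with normexp (0.0353), -2.77 with no scaling (0.0182), -2.95 with spike-in scaling (0.0247) and -2.62 with the trend (0.0302), and ranged from -2.84 to -2.39 with each array left out.

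The block on replicate number changed no count of members beyond 1.5 times (ADAM9 missed the threshold between the parental lines, adjusted p = 0.0569), and the numbers do not pair the arrays (r of 0.02, 0.03 and -0.05 between deviations of arrays with the same number). With no scaling the median siRNA difference of all probes was -0.19 for MIA PaCa-2 and -0.16 for Capan-1, and with spike-in scaling it was -0.33 for Capan-1. Among the named genes, signs turned for siRNA differences that had not passed. In MIA PaCa-2, MMP14 was 0.045 with normexp in place of -0.56, and TIMP1 -0.028 with no scaling. In Capan-1, TIMP3 was 0.13 with normexp, TIMP2 0.024 without siRNA replicate 1, and ADAM10 -0.018 with no scaling and -0.19 with spike-in scaling. TIMP1 there was -0.0096 with quantile normalization, -0.14 with no scaling, -0.32 with spike-in scaling, -0.017 without siRNA replicate 2, -0.063 without parental replicate 1 and, at the other end, 0.098 without parental replicate 2.

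Of the regulators, the call of PLAUR in MIA PaCa-2 was lost (0 higher) with no scaling, spike-in scaling, outlier spots kept, the deposited log2 table, no filter on dim probes, a minimum log2 difference of 1, the replicate block, the line fitted alone and each array left out, and normexp gave 2 higher and 1 lower. In Capan-1 normexp and the trend each gave 1 lower, and for the difference of the responses each gave 1 higher. Between the parental lines 3 regulators were higher with spike-in scaling and 3 with a minimum log2 difference of 1, and 3 to 7 with each array left out; of the relatives, 3 were higher with a minimum log2 difference of 1. The cause of these changes was not tested.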

Other observations

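Relatives of the ADAMTS proteases that carry no protease domain, astacin-type metalloproteases and the ADAM-like ADAMDEC1 were read from a list of 14 genes. Of 8 tested between the parental lines, 6 were higher in MIA PaCa-2 and 0 lower, against 39% and 31.3% of all genes tested. ADAMTSL1 was at least 7.60-fold higher by its brightest probe, but by its other tested probes the log2 difference was only 1.42 and 1.11. ADAMTSL4 was higher by 2.54 and THSD4 by 2.73 on the log2 scale, and BMP1, which cleaves the C-terminal part of fibrillar procollagens, by 0.68. ADAMTSL1, ADAMTSL4 and THSD4 are matrix proteins without protease activity that are linked to fibrillin microfibrils or the pericellular matrix. None of these relatives was called after HOXB7 siRNA in either line, with 8 tested in MIA PaCa-2, 1 of them at an unadjusted p under 0.05, and 6 tested in Capan-1.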
